A study of Mus musculus with 57 samples.

Results

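The 34 genes described here are transcripts by which leukocytes, and myeloid cells in particular, are usually recognised: 15 genes common to white blood cells, 17 genes of the myeloid lineage, and Coro2a and Pid1. They were taken from a named list, with earlier results of these data known, and 34 of 34 were present among the 12887 gene rows of the table of all cells. By their labels the cells were single RM1 cells, sorted from bone of 8 C57BL/6 mice 13 to 26 days after intracardiac injection. RM1 is a mouse prostate cancer line, which here carries cerulean (eCFP) and luciferase (Luc2) transgenes. Dormant cells had kept the membrane dye PKH26 and proliferating cells had lost it, and no other genotype or treatment separated them. There were 28 dormant and 29 proliferating cells, each state coming from 6 mice, with 4 mice giving both. By eCFP the cells fell into 3 classes. The first was 6 low-label cells, with eCFP under 100 normalised reads, from 4 mice and all sorted as dormant. The second was 22 labelled dormant cells from 4 mice, and the third 29 labelled proliferating cells from 6 mice. Libraries were made in batches of 1 state each, per the labels' protocols, so the effects of batch and of state cannot be told apart.

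White blood cells move, engulf and signal with an actin machinery of their own. Coronin 1A, L-plastin, WASP, myosin 1F and the small GTPase Rac2 with its activator Vav1 organise actin, and kindlin-3 switches integrins on. The phosphatases CD45 (Ptprc) and SHP-1 (Ptpn6) set the threshold of receptor signalling. In myeloid cells the ETS-family factor PU.1, encoded by Spi1, drives the receptors for colony-stimulating factor 1 and for antibody, and lysozyme (Lyz2) is an abundant secreted product of macrophages and granulocytes. Epithelial and other non-blood cells use related genes in the same places, such as Pls3 for Lcp1, Fermt2 for Fermt3 and Wasl for Was. In marrow, tumour cells sit among these leukocytes.

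Promoter windows of 4 members are shown because these genes span the range seen below, from Fcgr1, which was at 0 in every labelled proliferating cell, to Arhgdib, which was above 0 in every cell. Each window is the 250 bases before a RefSeq start (GRCm38.p6) with no GENCODE exon in it, and capitals mark AGGAAGT or GAGGAA, core letters that PU.1 and other ETS factors are known to bind, on either strand.
Fcgr1 (chr3:96293970-96294219, minus strand): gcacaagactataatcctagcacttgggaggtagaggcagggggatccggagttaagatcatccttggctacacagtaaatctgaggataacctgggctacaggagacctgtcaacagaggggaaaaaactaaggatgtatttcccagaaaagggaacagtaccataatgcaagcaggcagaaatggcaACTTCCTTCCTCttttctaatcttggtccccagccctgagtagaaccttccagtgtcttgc
Vav1 (chr17:57278850-57279099, plus strand): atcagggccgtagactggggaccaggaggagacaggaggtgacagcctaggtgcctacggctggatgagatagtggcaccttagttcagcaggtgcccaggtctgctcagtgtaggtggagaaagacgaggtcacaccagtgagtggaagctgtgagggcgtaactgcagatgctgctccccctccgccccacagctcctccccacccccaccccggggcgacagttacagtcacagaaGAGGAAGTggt
Cd53 (chr3:106790150-106790399, minus strand): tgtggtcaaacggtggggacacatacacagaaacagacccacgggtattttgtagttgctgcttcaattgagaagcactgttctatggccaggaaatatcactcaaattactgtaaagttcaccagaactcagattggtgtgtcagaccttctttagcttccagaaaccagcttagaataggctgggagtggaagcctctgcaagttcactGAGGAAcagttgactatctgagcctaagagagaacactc
Arhgdib (chr6:136941900-136942149, minus strand): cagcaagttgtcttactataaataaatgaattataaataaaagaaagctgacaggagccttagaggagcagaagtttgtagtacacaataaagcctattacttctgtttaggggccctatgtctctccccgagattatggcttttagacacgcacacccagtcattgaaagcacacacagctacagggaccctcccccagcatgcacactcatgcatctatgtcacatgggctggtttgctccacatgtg
The RefSeq promoter table held 33 windows for 26 of the 34 members. AGGAAGT, searched on both strands, was present in 9 of these 33 windows (27.3%) and in 7.69% of all 32851 windows. GAGGAA was in 13 member windows (39.4%) and 23.3% of all, and GAGGAAGT, which contains both, in 2 member windows (6.06%) and 2.44% of all. TATAAA was in 3 member windows (9.09%) and 12.4% of all. The Vav1 window joins the ETS letters into GAGGAAGT 11 bases before the start, the Fcgr1 window holds both motifs on the opposite strand, and the Arhgdib window printed here holds neither. Arhgdib has 3 windows in the table, and of those not printed, which overlap an exon, 1 holds AGGAAGT and the other GAGGAA. Of the other members at 0 in every labelled proliferating cell, Was had AGGAAGT in a window, and Cd48, Slamf7 and Coro2a had neither motif. Among members found in many labelled cells, Lyz2 had AGGAAGT, and Cd68 and Cytip had GAGGAA. These are matches of letters only.

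Depth was similar across the classes. Recovered reads on genes ranged from 1421017 to 3005891 in low-label cells, 1310736 to 5306777 in labelled dormant cells and 945351 to 5165965 in labelled proliferating cells, and 1 read was worth 0.628 to 3.29 normalised reads. The tumour labels separated the classes beyond the gene that defined them. Luc2 was 2.28 to 230 normalised reads in low-label cells, 1850 to 26410 in labelled dormant cells and 1994 to 16708 in labelled proliferating cells. Krt8, a keratin of simple epithelia, was 0 to 9.40 in low-label cells, 560 to 15246 in labelled dormant cells and 87.8 to 24783 in labelled proliferating cells. The low-label cells are RM1 cells by the labels only, and these levels of label and keratin go against that name for them. Nearest the eCFP limit, the highest low-label cell had 87.6 and the lowest labelled cells 327 and 349. Levels are normalised reads per gene, not divided by gene length, so they are compared between cells and not between genes.

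Every member was found, meaning above 0 in at least 1 cell, in the low-label cells and in the labelled dormant cells, 34 of 34 in each. In labelled proliferating cells 29 of 34 were found, and Cd48, Was, Fcgr1, Slamf7 and Coro2a were at 0 in all 29 cells. A count of 0 in 29 cells allows a share of up to 10.3% of cells with a read, counting error only. No member was found only in low-label cells, though Was came to that without a single labelled dormant cell, number 105 of mouse 1184, where it had 36.4 normalised reads. If at least 10 normalised reads were asked for, 34 members were found in labelled dormant cells and 22 in labelled proliferating cells. Without the labelled cells that held at least 20 members, 25 members were found in labelled dormant cells and 27 in labelled proliferating cells. That setting was chosen after seeing the data, by the members themselves. The eCFP classes are the rule by which the genes are grouped, so the counts are a description.

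Presence in at least 1 cell hid a large difference in how many members a cell held together. Low-label cells had 20 to 34 members above 0, with a median of 31. Labelled dormant cells had 2 to 33, with a median of 6.5, and labelled proliferating cells 3 to 21, with a median of 6. At an equal depth of 945351 reads per cell the ranges were 20 to 34, 2 to 33 and 1 to 21. At least 20 members were above 0 in 6 of 6 low-label cells, 5 of 22 labelled dormant cells and 1 of 29 labelled proliferating cells. The 5 labelled dormant cells were numbers 104 and 105 of mouse 1184, 26 and 29 of mouse 369, and 93 of mouse 1185, and the labelled proliferating cell was number 89, also of mouse 1185. Mice 1184 and 369 also gave 3 of the 6 low-label cells. Just under this limit lay labelled dormant cells of mouse 1185 with 16 and 15 members, and the labelled proliferating cell with the next highest number had 12.

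**Figure D1:**
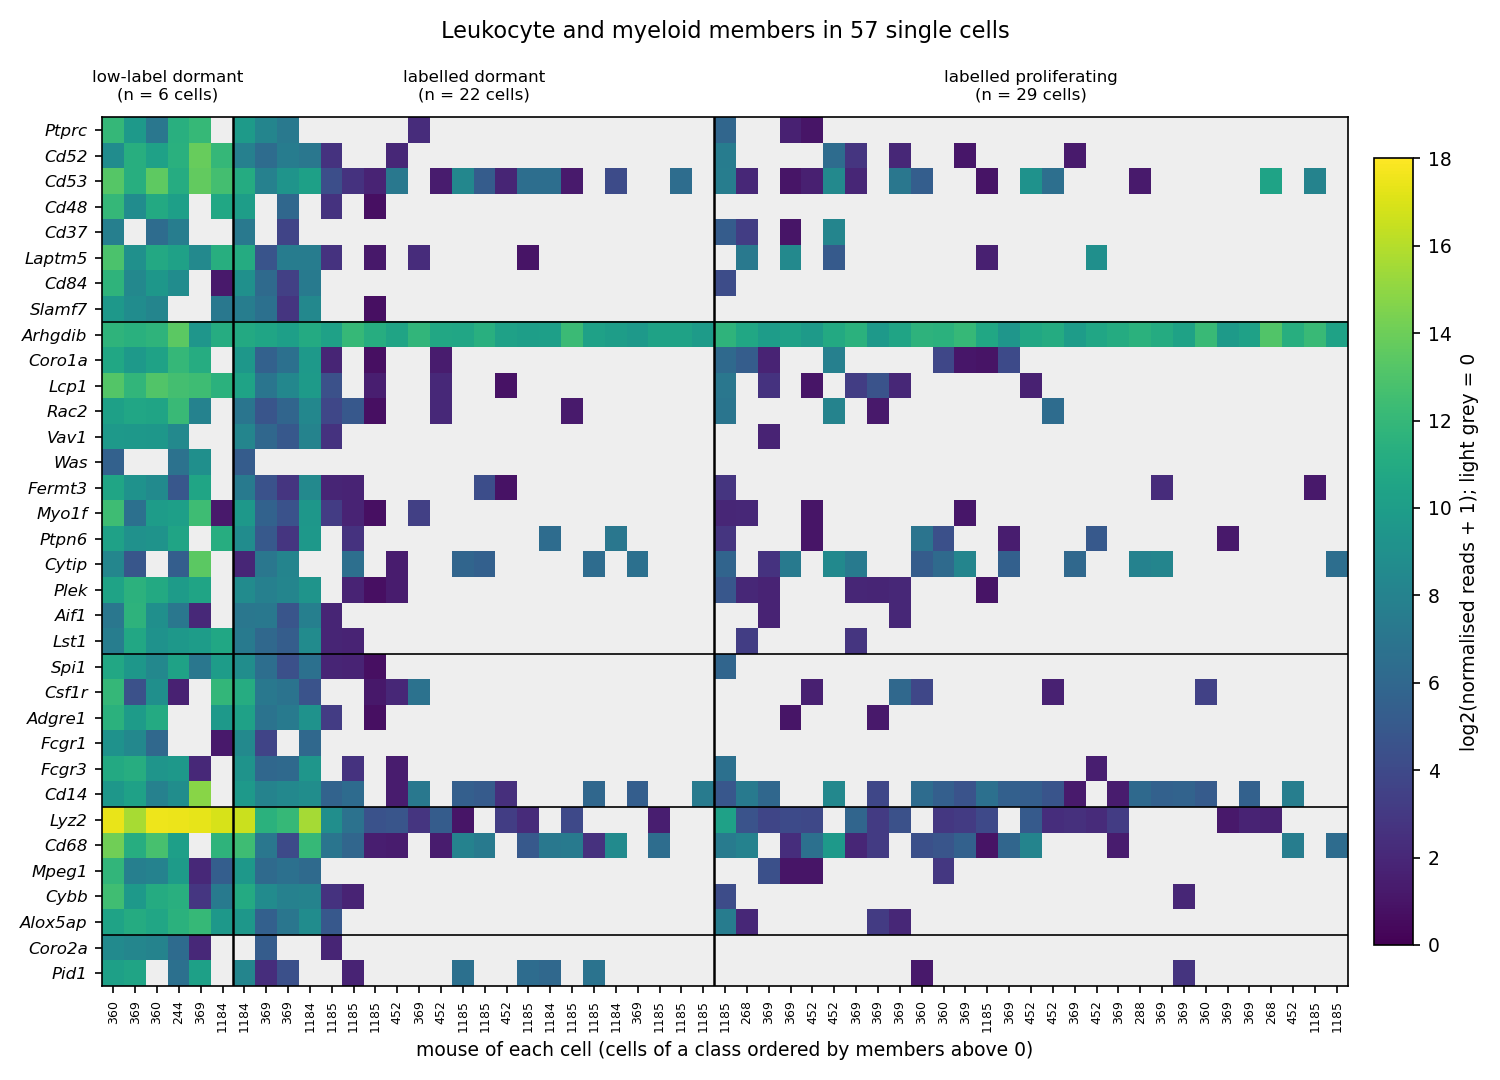
Level of each of the 34 members (vertical, grouped by role) in each of the 57 cells (horizontal, named by mouse and ordered within a class by members above 0), as log2(normalised reads + 1), with 0 in light grey. The 6 low-label cells and a few labelled dormant cells are filled across most genes, while Arhgdib is filled in all cells and Cd53, Cd14, Lyz2, Cd68 and Cytip are scattered through the labelled classes.

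**Figure D2:**
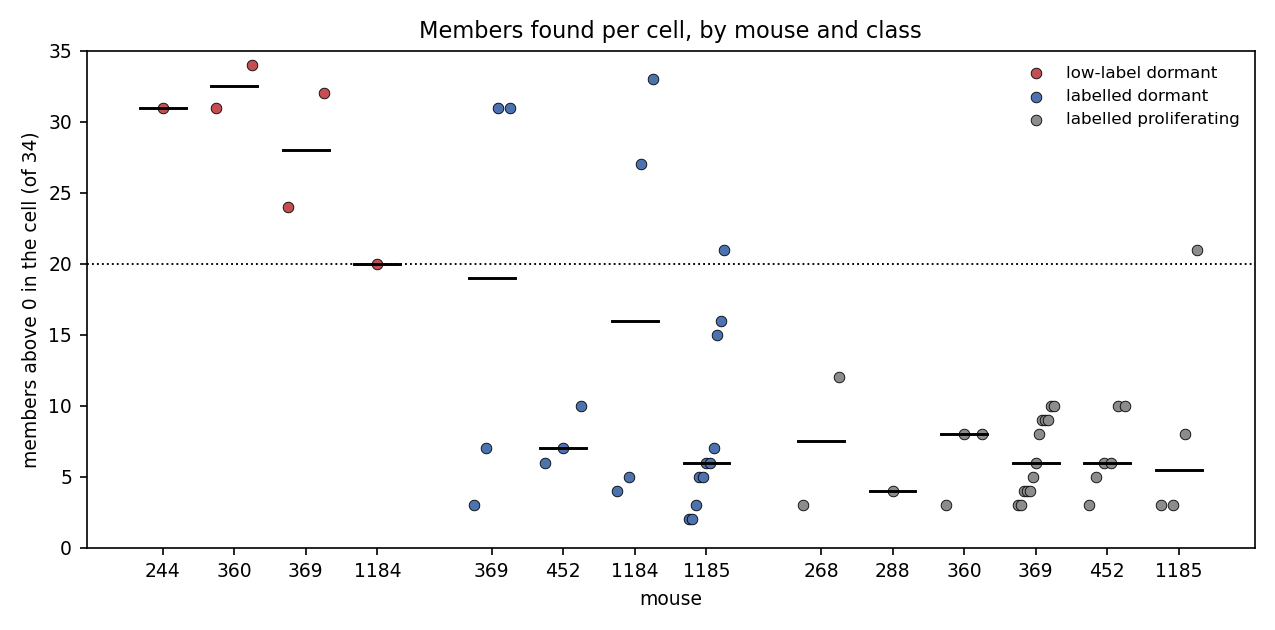
Number of the 34 members above 0 (vertical) in each cell, by mouse (horizontal) and class, where each point is a cell, the bar is the median of the mouse and the dotted line marks 20 members. All 6 low-label cells reach the line, as do 5 labelled dormant cells from mice 369, 1184 and 1185 and 1 labelled proliferating cell from mouse 1185.

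The 6 labelled cells with at least 20 members carried the tumour label and the member transcripts at once, in very different amounts. The labels give no doublet check and no doublet caller was run, so a single cell with both kinds of transcript and a library of more than 1 cell cannot be told apart, here or in the comparison of labelled cells that includes these 6. The members took 3.59 to 7.58% of all reads in low-label cells. They took 2.01% in cell 104 and 3.16% in cell 105, both labelled dormant, with Luc2 at 1850 and 2494 and eCFP at 418 and 736. They took 0.241% in cell 26, 0.277% in cell 29 and 0.0509% in cell 93, all labelled dormant, and 0.145% in the labelled proliferating cell 89. In the other 45 labelled cells the share was 0.027 to 0.404%, with a median of 0.0566%, so cells 26, 29, 93 and 89 lay within that range. That share counts Arhgdib, which every cell held. Without Arhgdib the members summed to 7925 normalised reads in cell 29, 6095 in cell 26, 2747 in cell 89 and 798 in cell 93. In the other 45 this sum was at most 2793, with a median of 207, so cells 29 and 26 lay above them. In cell 93 Coro1a, Fermt3, Spi1, Lst1, Aif1 and Coro2a were each at 2.68 normalised reads, the value of 1 read there. Krt8 was at 653 and 560 normalised reads in cells 104 and 105 and at 1758 to 7830 in the other 4, so each of the 6 held keratin transcripts above the 9.40 seen at most in a low-label cell. Across the 33 members other than Arhgdib, Pearson's r between the log2 levels of each of these 6 cells and the mean low-label cell was 0.57 to 0.75, against 0.27 to 0.65 for each low-label cell and the other low-label cells. The likeness was not particular to these 6. Labelled dormant cells 94 and 81, with 15 and 16 members, had r of 0.72 and 0.35, with 13 and 10 of those members at only 1 to 4 reads. That r is across genes, which are not independent replicates. The 6 cells were chosen by these same members, so part of their r is built in by the choice. No r was computed for labelled cells with fewer than 15 members, so nothing is concluded from it.

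**Figure D3:**
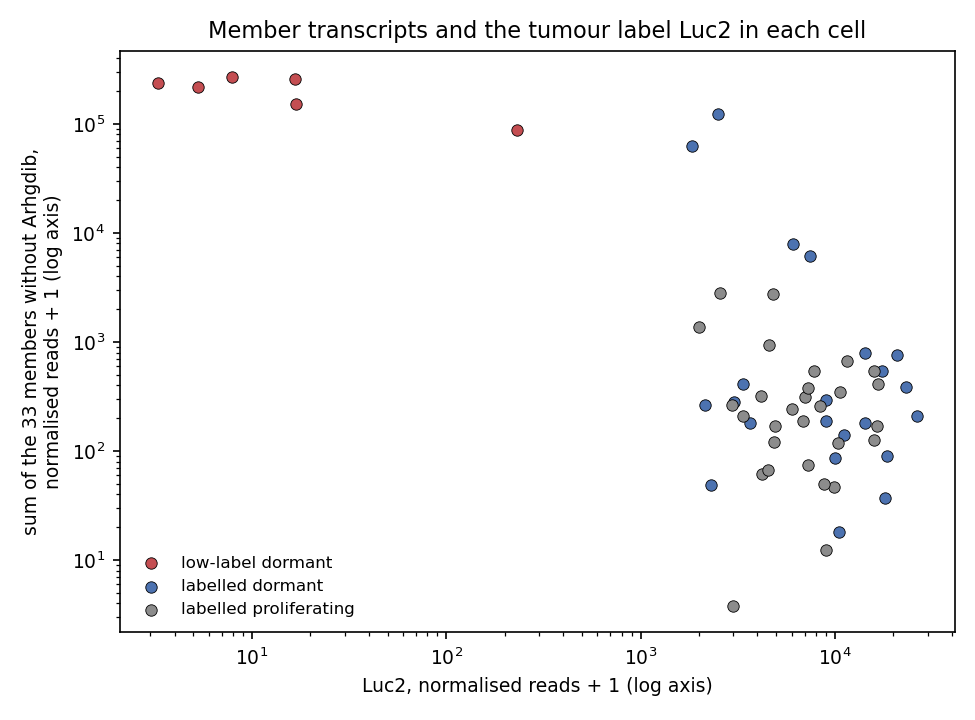
Sum of the 33 members without Arhgdib (vertical) against Luc2 (horizontal) in each cell, both as normalised reads + 1 on log axes, with points coloured by class. Low-label cells lie at high sums and Luc2 of at most 230, labelled dormant cells 104 and 105 lie at sums near theirs with Luc2 of 1850 and 2494, and the other labelled cells lie lower.

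Surface proteins were found together in low-label cells and thinly elsewhere. Ptprc (CD45), the phosphatase that defines leukocytes in sorting, was above 0 in 5 of 6 low-label cells, at 139 to 4235 normalised reads. Of 22 labelled dormant cells 4 had it, at 3.85, 151, 286 and 915, and in 3 of 29 labelled proliferating cells (10.3%, exact 95% interval 2.19 to 27.4%), where the highest value was 60.4, in cell 89. The low-label cell of mouse 1184 had Ptprc at 0 beside Cd53 at 6293, Lyz2 at 120425 and Csf1r at 3850. Cd52, a small glycoprotein anchored to the leukocyte surface, was 435 to 14396 in low-label cells and reached 230 in labelled dormant cells and 184 in labelled proliferating cells. Cd48, a ligand of the SLAM receptor family, reached 4162 in low-label cells, 1055 in labelled dormant cells and 0 in labelled proliferating cells. Its family members Cd84 and Slamf7 reached 3360 and 768 in low-label cells, 535 and 340 in labelled dormant cells and 17.3 and 0 in labelled proliferating cells. The tetraspanin Cd53 differed from these in being found in more labelled cells. It was found in 6 of 6 low-label cells, at 2307 to 13275 with a median of 7917. In 17 of 22 labelled dormant cells it was found up to 2172, with a median of 17.4 over the class. In 14 of 29 labelled proliferating cells it was found with a highest value of 1373. The other tetraspanin, Cd37, was low in all classes, at most 222 in low-label cells, 151 in labelled dormant cells and 288 in labelled proliferating cells. Laptm5, a lysosomal membrane protein of blood cells, was 351 to 7655 in low-label cells, up to 2195 in labelled dormant cells and up to 498 in labelled proliferating cells.

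Among cytoskeletal genes, Lcp1 (L-plastin), which bundles actin in leukocytes, was higher in every low-label cell than in any labelled cell. The same held for Cd52, Cd53 and Alox5ap, and the share of all genes with such a gap was not counted. Lcp1 was 2879 to 9149 in the 6 low-label cells. Of 22 labelled dormant cells 8 had it, with values of 1400 in cell 105, 917 in cell 104, 328 in cell 29, 130 in cell 26 and at most 21.4 in the others. It was above 0 in 7 of 29 labelled proliferating cells, with 138 in cell 89 and at most 23.5 elsewhere. Coro1a (coronin 1A), an actin regulator of leukocytes, was 797 to 4075 in 5 low-label cells, at most 815 in labelled dormant cells and at most 227 in labelled proliferating cells. Rac2, a small GTPase of blood cells, reached 4595 in low-label cells, 327 in labelled dormant cells and 264 in labelled proliferating cells. Vav1, which loads Rac with GTP, was 346 to 864 in 4 low-label cells, at most 286 in 5 labelled dormant cells and 2.55 in 1 labelled proliferating cell. Was, which turns on branched actin assembly, was the member above 0 in the fewest cells, in 3 low-label cells at 48.2 to 501, in 1 labelled dormant cell and in no labelled proliferating cell. Fermt3 (kindlin-3) reached 1551 in low-label cells, 361 in labelled dormant cells and 5.75 in labelled proliferating cells. Myo1f, an unconventional myosin of leukocytes, reached 5361, 764 and 2.96 in the same order of classes.

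Signalling members followed a like pattern with more exceptions. Ptpn6 (SHP-1) reached 2425 in low-label cells, 792 in labelled dormant cells and 119 in labelled proliferating cells. Plek (pleckstrin), a substrate of protein kinase C, reached 2962 in low-label cells, 637 in labelled dormant cells and 28.8 in labelled proliferating cells. Aif1, a calcium- and actin-binding protein of macrophages also called Iba1, reached 3161, 213 and 2.94 in that order. Lst1, a myeloid transcript, was 196 to 1784 in all 6 low-label cells, at most 407 in labelled dormant cells and at most 8.87 in labelled proliferating cells. Cytip, which binds the integrin regulator cytohesin, did not follow the others. It had a median of 33.7 in low-label cells, with 11176 in cell 25 of mouse 369, and was found in 9 of 22 labelled dormant cells up to 275 and in 13 of 29 labelled proliferating cells up to 373.

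Arhgdib went against the label of the group. It encodes a regulator of small GTPases that is best known from blood cells. It was above 0 in all 57 cells, at 708 to 11438 normalised reads in low-label cells with a median of 3103. The median was 1405 in labelled dormant cells, up to 4930, and the gene was also in 29 of 29 labelled proliferating cells up to 8686. In the 45 labelled cells with fewer than 20 members its median was 1616. By dormant mice its mean log2 level was 10.54 to 13.48 and by proliferating mice 10.48 to 11.90, and these ranges overlapped.

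The myeloid factor Spi1 was found in every low-label cell, while some of the myeloid receptors split these cells. Spi1 (PU.1) was above 0 in all 6, at 141 to 1780, in 7 of 22 labelled dormant cells up to 442, and in 1 labelled proliferating cell, number 89, at 57.5. Csf1r, the receptor for colony-stimulating factor 1, was 3850 in cell 103, 4162 in cell 110 and 487 in cell 111, but 20.7 in cell 27, 2.15 in cell 33 and 0 in cell 25. In labelled dormant cells it reached 2287, in cell 105, and in labelled proliferating cells 67.6. Adgre1, which encodes the macrophage antigen F4/80, was 807 to 2891 in 4 low-label cells and 0 in cells 33 and 25. It was 1243 in cell 105, 578 in cell 104, 161 in cell 29 and 115 in cell 26, against at most 1.30 in labelled proliferating cells. The antibody receptors Fcgr1 and Fcgr3 reached 583 and 2403 in low-label cells, 347 and 714 in labelled dormant cells, and 0 and 101 in labelled proliferating cells. Cd14, the lipopolysaccharide co-receptor, was 29190 in cell 25 and at most 1241 in the other low-label cells. It was also found in 14 of 22 labelled dormant cells up to 812 and in 20 of 29 labelled proliferating cells up to 337.

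Cells 33 and 25, the low-label cells with Adgre1 at 0, were those rich in neutrophil granule transcripts. S100a8, a calcium-binding protein that neutrophils make in large amounts, was 180886 in cell 33 and 378089 in cell 25, against at most 11.5 in the other 4 low-label cells. Cell 33 of mouse 244 also had the B cell receptor gene Cd79a at 932, the cytotoxic granule gene Nkg7 at 1538 and haemoglobin Hbb-bs at 5885, and each of these was 0 in the other 5 low-label cells. Among labelled cells with at least 20 members, S100a8 was 11263 in the proliferating cell 89, beside Hbb-bs at 29184, and 4450 in the dormant cell 29. It was at most 199 in the dormant cells 104, 105, 26 and 93. Over the 14 neutrophil genes in the table, the summed level was 0 to 796355 in low-label cells, 0 to 9257 in labelled dormant cells and 0 to 31341 in labelled proliferating cells. Over 7 B cell genes it was 0 to 2642 in low-label cells, 0 to 114 in labelled dormant cells and 0 to 2568 in labelled proliferating cells. Over 6 erythroid genes it was 0 to 14806, 0 to 7.06 and 0 to 70644 in that order of classes. Neutrophil and erythroid transcripts thus stood beside many members in cells 33 and 89. The B cell sum of 2568 was in the labelled proliferating cell 66, which held 10 members. Low-label cells 103, 110 and 111 held 20, 34 and 31 members with S100a8 at most 1.72. The part of neutrophil, B cell and erythroid transcripts in the members' values was not tested.

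The myeloid effectors included Lyz2, the lysozyme of macrophages and granulocytes. It stood at 52145 to 188632 normalised reads in the low-label cells. It was 95205 in cell 105, 48048 in cell 104, 4262 in cell 29, 2940 in cell 26 and 477 in cell 93, all labelled dormant, and 1251 in the labelled proliferating cell 89. Among the other 45 labelled cells it was above 0 in 28, with a median of 8.34 where present and a highest value of 112. Its close copy Lyz1 was not analysed here, so reads that the copies share could stand under Lyz2. Cd68, a lysosomal glycoprotein of macrophages, reached 17309 in low-label cells and 5426 in labelled dormant cells, and was found in 16 of 29 labelled proliferating cells up to 827. Cell 25 had Cd68 at 0. Cybb, the catalytic subunit of the phagocyte NADPH oxidase, was 6.27 to 5655 in low-label cells, at most 2074 in labelled dormant cells and at most 17.3 in labelled proliferating cells. Alox5ap, which presents arachidonate for leukotriene synthesis, was 771 to 4354 in low-label cells, at most 750 in labelled dormant cells and at most 190 in labelled proliferating cells. Mpeg1, a pore-forming protein of macrophages, reached 3699, 787 and 20.4 in that order of classes. Of the remaining members, Coro2a, another coronin, reached 385 in low-label cells, 36.4 in labelled dormant cells and 0 in labelled proliferating cells. Pid1, an adaptor that binds phosphotyrosine motifs of receptors, reached 1459, 286 and 5.47.

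In the 45 labelled cells with fewer than 20 members, the members fell into 3 kinds by how many cells held them. Arhgdib, Cd53, Cd68, Lyz2, Cd14 and Cytip were each above 0 in more than 10 cells, and 24 members in 1 to 10 cells. Was, Fcgr1, Cd84 and Coro2a were above 0 in none, so at this depth they were not detectable there. These counts describe cells chosen by the members themselves.

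For several members a related gene of broader expression was found in a larger share of the labelled cells, or at higher levels there. Pls3 (T-plastin), the relative of Lcp1, had a median of 1.24 normalised reads in low-label cells, 1465 in labelled dormant cells and 2113 in labelled proliferating cells. Fermt2 (kindlin-2) was found in 0 of 6 low-label cells, 18 of 22 labelled dormant cells and 27 of 29 labelled proliferating cells. Wasl (N-WASP) was found in 1 of 6, 21 of 22 and 24 of 29, and Ptpn11 (SHP-2) in 3 of 6, 18 of 22 and 25 of 29. Cd81, a tetraspanin related to Cd53, had medians of 3.52 in low-label cells, 764 in labelled dormant cells and 381 in labelled proliferating cells. Fcgr2b, an inhibitory antibody receptor of leukocytes, went the other way, found in 3 of 6 low-label cells, 4 of 22 labelled dormant cells and 3 of 29 labelled proliferating cells. Several relatives had levels in the same range in all classes. Arhgdia had medians of 2059 in low-label cells, 2145 in labelled dormant cells and 1982 in labelled proliferating cells. Rac1 had medians of 2493, 1791 and 2303, and Coro1b, Cd9 and Lamp1 were above 0 in all 57 cells. The relatives were chosen for their known families, and the classes differ in more than the label, so these are values with no test.

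**Figure D4:**
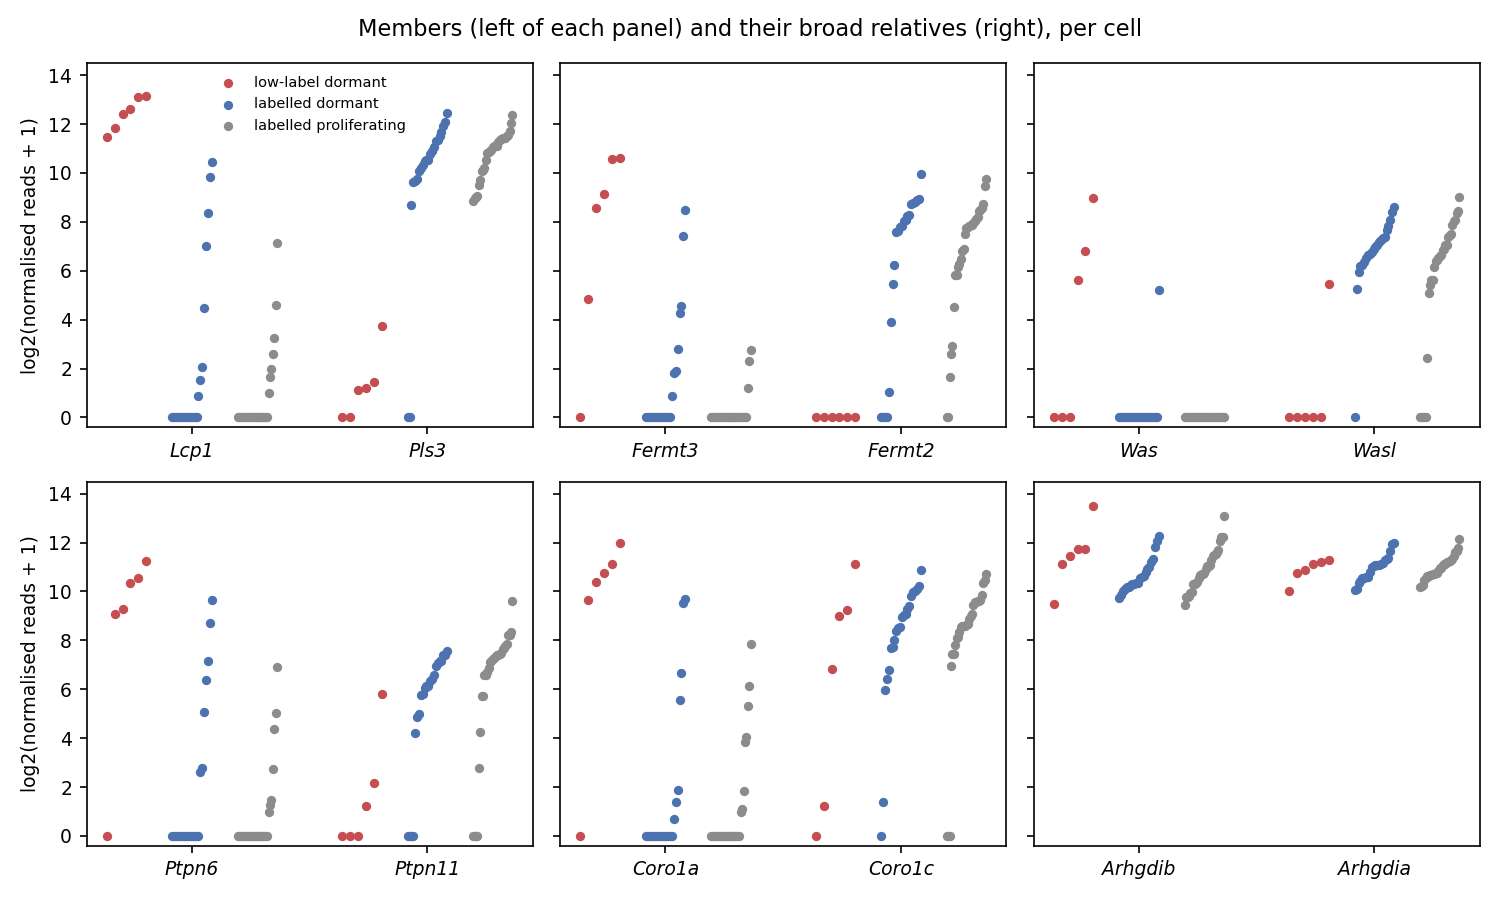
Level of 6 members (left in each panel) and of a relative of broad expression (right), as log2(normalised reads + 1), where each point is a cell, sorted within its class. Lcp1, Fermt3, Was and Ptpn6 are highest in low-label cells while Pls3, Fermt2, Wasl and Ptpn11 are higher in labelled cells, and Arhgdib and Arhgdia overlap across all 3 classes.

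A second list of 30 leukocyte signalling and cytoskeleton genes followed the members. Each low-label cell held 16 to 29 of them, each labelled dormant cell 3 to 28 and each labelled proliferating cell 3 to 22. Lyn, a Src-family kinase, had a median of 1152 in low-label cells, 33.2 in labelled dormant cells and 33.1 in labelled proliferating cells. Evi2b, a blood cell membrane protein, reached 3749, 510 and 118. Capg, a gelsolin-like capping protein with a wider tissue range, was above 0 in all 57 cells, with medians of 3187, 2254 and 1542. Most markers of other marrow cells were found in few cells, with exceptions among genes of wider expression. Bst2, an interferon-inducible membrane protein on the dendritic cell list, was above 0 in 4 of 6 low-label cells, 18 of 22 labelled dormant cells and 27 of 29 labelled proliferating cells. Runx2, the osteoblast transcription factor, was above 0 in 2 of 6, 16 of 22 and 21 of 29 in that order of classes. Nfatc1, a transcription factor on the osteoclast list, was above 0 in 2 of 6, 11 of 22 and 16 of 29. The 5 osteoclast genes in the table summed to at most 3390 in low-label cells, 583 in labelled dormant cells and 845 in labelled proliferating cells, and the 4 dendritic cell genes to at most 579, 459 and 1116. The 3 platelet genes summed to at most 897, 86.8 and 1360, and the 3 stromal and osteoblast genes to at most 17.2, 370.0 and 237. The stromal genes Alpl and Pdgfrb were at 0 in all 6 low-label cells. Of the T and NK cell list only Nkg7 was in the table, and it reached 1.59 in labelled dormant cells and 0 in labelled proliferating cells.

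Between the states the mouse was the replicate, and each mouse and state gave the mean of log2(normalised reads + 1) over its cells. Cells at 0 are part of these means, so fewer positive cells and less RNA per cell cannot be told apart in them. The dormant means of mice 244 and 360 rested wholly on low-label cells, 1 and 2 of them. Lyz2 had dormant means of 17.46 in mouse 360, 17.45 in mouse 244, 9.89 in mouse 369, 9.79 in mouse 1184, 4.42 in mouse 452 and 2.63 in mouse 1185. Its proliferating means were 3.56 in mouse 1185, 3.13 in mouse 268, 2.55 in mouse 369, 2.26 in mouse 452, 0.97 in mouse 360 and 0 in mouse 288. The 4 dormant mice with low-label cells stood above every proliferating mouse, and the dormant mice 452 and 1185, which had none, lay within or just above the proliferating range. The difference was 8.20 (SE 1.97), from 10.27 ± 6.27 in dormant and 2.08 ± 1.35 in proliferating mice (SD, n = 6 each). Lcp1 averaged 6.70 ± 5.42 in dormant and 0.53 ± 0.72 in proliferating mice, Ptprc ranged from 0 to 11.35 in dormant mice and from 0 to 1.49 in proliferating mice, and Adgre1 averaged 3.57 ± 4.47 and 0.03 ± 0.07 (SD, n = 6 each). Cytip averaged 3.20 ± 2.62 in dormant and 3.29 ± 2.70 in proliferating mice, Cd14 5.80 ± 3.44 and 4.31 ± 1.36, and Arhgdib 11.29 ± 1.16 and 11.28 ± 0.57.

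No gene passed limma with Benjamini-Hochberg adjustment at 0.05 over all mice, 0% of the 11843 genes tested, and the smallest adjusted p of a member was 0.437. The filter of at least 6 cells above 0 kept 33 members and left out Was. At unadjusted p under 0.05, 29 of these 33 were higher in dormant mice, against a background of 3.28% of genes higher at that level. The exceptions were Cd37, Cd14, Cytip and Arhgdib. The members' median difference was 4.37 and that of all genes -0.35. With cells rescaled by median of ratios, all genes had a median of -0.19 and the unadjusted calls came to 453 higher and 527 lower, in place of 389 and 737, while the members had a median of 4.61. On whole reads added up within each mouse and state, edgeR called 0% of genes higher at an adjusted p under 0.05, while DESeq2 called 2.65% of its 11323 genes and 29 members, so the adjusted call depended on the count model. The members were listed with such results known, so their counts are a description.

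Within the 4 mice that gave both states, with the mouse as a block, 32 members were tested and 20 were higher in dormant cells at unadjusted p under 0.05, beside 1.04% of 11579 genes. The background of adjusted calls was 0% with limma and 0% higher with edgeR. DESeq2 called 1.26% of genes higher and 15 members. The median member difference was 3.29, against -0.72 over all genes. Mice 360 and 369 carried the count, and fewer members passed the filter without them. The count was 6 of 26 members tested without mouse 360, beside 0.851% of 11285 genes, with a median of 1.35, and 2 of 19 without mouse 369, beside 0.368% of 10585 genes. Leaving out the 4 low-label cells of these mice, a setting chosen after seeing the data, also drops mouse 360, whose dormant cells were all low-label, and so leaves 3 pairs. In it 0 of 23 members tested were past unadjusted p under 0.05, beside 1.16% of 11191 genes, and the median was 0.57.

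Among labelled cells alone, 4 dormant and 6 proliferating mouse means, 28 members were tested and 13 were higher in dormant mice at unadjusted p under 0.05, beside 1.45% of 11595 genes. No gene passed adjustment, 0% with limma and 0% higher with edgeR, while DESeq2 called 0.116% of 11181 genes higher and 1 member. The median member difference was 1.57, against 0.09 over all genes. For Lyz2 the dormant means were 8.02 in mouse 1184, 6.59 in mouse 369, 4.42 in mouse 452 and 2.63 in mouse 1185, the last within the proliferating range that ended at 3.56. Adgre1 was 4.86, 3.55, 0 and 0.35 in the same 4 dormant mice, against 0 to 0.17 in proliferating mice, and Spi1 was 3.86, 2.72, 0 and 0.40, against 0 to 1.47. Dormant mice 1184 and 369 lay above every proliferating mouse for all 3 genes. Mouse 452 lay above that range for Lyz2 but not for Adgre1 or Spi1, and mouse 1185 lay above it for Adgre1 but not for Lyz2 or Spi1. The count of 13 was 1 of 25 members tested without mouse 1184, beside 0.489% of 11447 genes, and 1 of 19 without mouse 369, beside 1.28% of 10872 genes. It was 0 of 16 without the 6 labelled cells that held at least 20 members, beside 1% of 11261 genes, as that choice fixes, and the median was then -0.01.

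**Figure D5:**
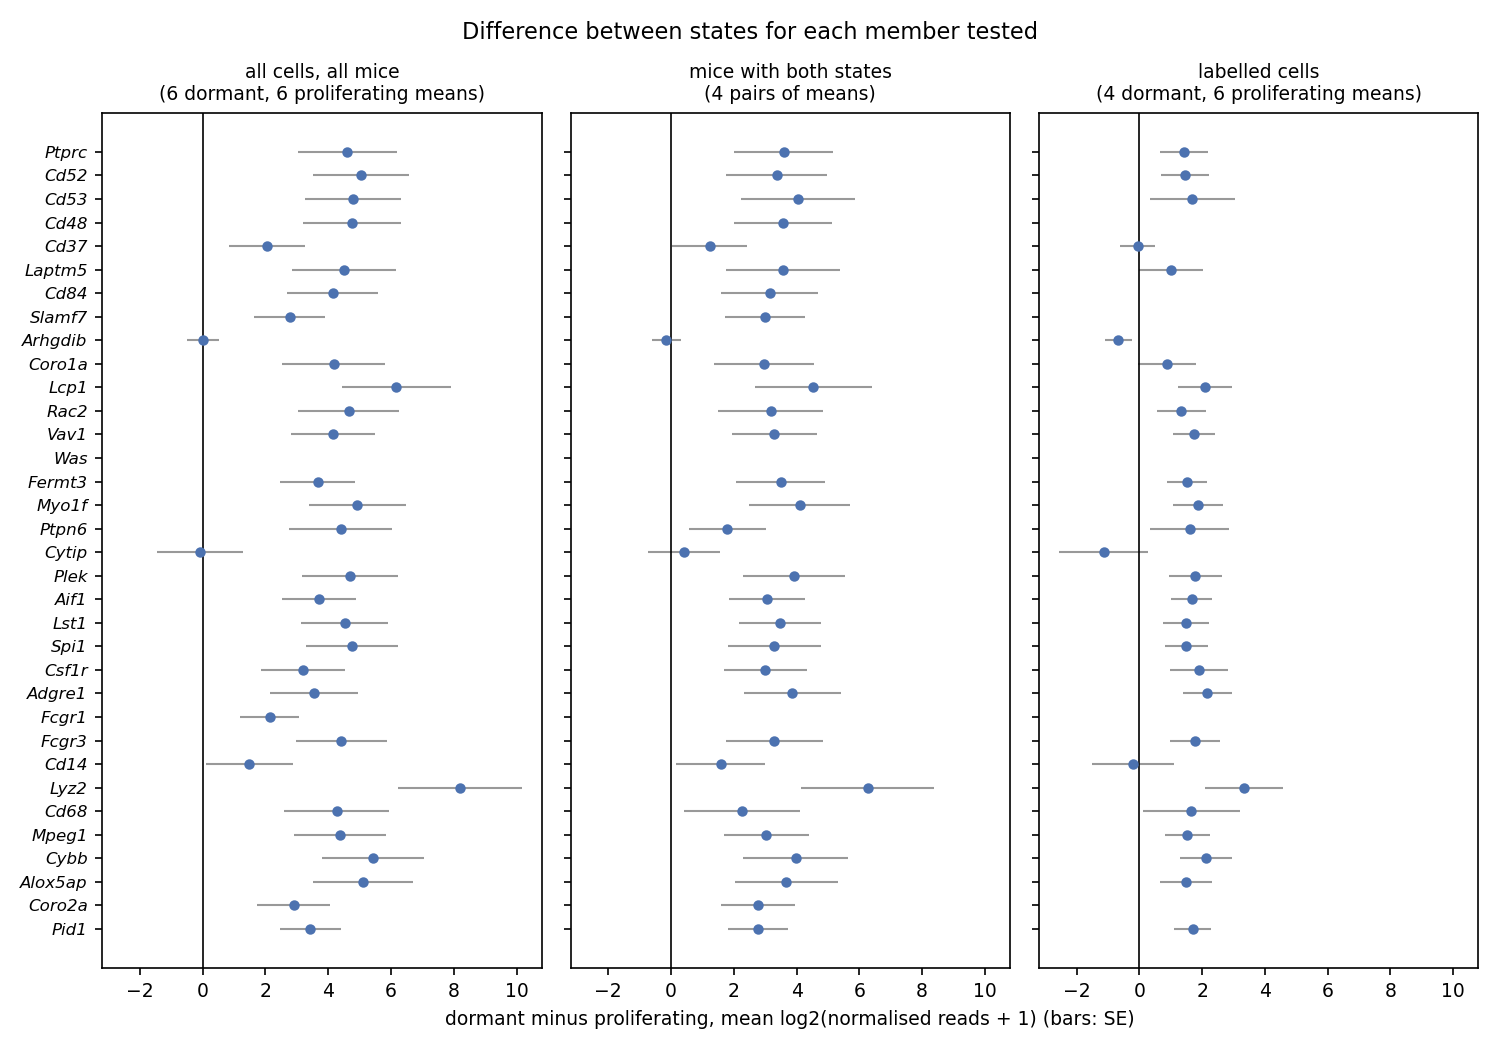
Difference in mean log2(normalised reads + 1), dormant minus proliferating (horizontal), for each member tested (vertical), with bars for the SE, in all mice, in mice with both states and in labelled cells. Nearly all points lie above 0 in the panels that include low-label cells and nearer to 0 in labelled cells, and Arhgdib and Cytip lie near 0 or below in each.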

How the data were processed

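Single-cell full-length RNA-seq (SMARTer cDNA, Nextera XT libraries, spike-in RNA) was measured in 57 sorted cells, per the labels' protocols. STAR, RSEM and the builds GRCm38 and mm10 are named in the submitters' processing notes, without versions or roles. The authors deposited BASiCS-normalised values, a signal that is never negative, for all 57 cells and for the 48 cells of the 4 mice with both states. Of the gene values above 0, 100% were a whole number of a step fixed for the cell (tolerance 0.01 reads), so whole reads were recovered, 945351 to 5306777 per cell. Spike-in rows (118) were left out. No source states a stranded count, so Coro1a, Cd37, Arhgdib, Fermt3, Csf1r, Plek and Ptprc could share reads with overlapping genes in the table. Of 12887 gene rows, 12852 matched a symbol.

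Groups and mice come from the labels. Means of log2(value + 1) per mouse and state entered limma (3.58.1, trend and robust, R 4.3.3) for genes above 0 in at least 6 cells, without a block over all mice and in labelled cells, and with the mouse as a block in the 4 mice with both states. Pairing comes from the labels, since both states came from the same mouse, and the deviations of paired means correlated at 0.341, 0.168, 0.004 and -0.007 in mice 369, 452, 360 and 1185. edgeR (4.0.16) and DESeq2 (1.42.0) on recovered reads, pseudocounts, filters, scaling, averaging, label limits and mice left out were alternatives. The fits were also run on simulated data, with outcomes not reported here. Those data redrew cells across mice and states, so they cannot show how the fits behave with differences between mice. Adjustment was by Benjamini-Hochberg at 0.05. Exact binomial intervals (95%) and limits from counts of 0 (3 counts) treat cells as independent and cover counting error only. P-values of the fits without a block measure the spread between mouse means, and those of the blocked fit the spread of the differences within mice. In the fits without a block, both means of a mouse that gave both states were treated as independent, so that pairing was ignored there. The members, the other lists, the relatives and the rule for named genes (all members by role, their relatives, the 3 genes highest in low-label cells of each other list, and the tumour labels, not all of which are reported here) were chosen with earlier results of these data known. No 2 cells correlated above 0.891, so none looked like a library deposited again.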

Additional observations from a re-analysis of the deposited data

Results flagged for a closer look

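Among the 24 groups of 4 or 6 mouse means behind 8 members described by mouse, 3 had a mouse far from the rest, all in the proliferating group of 6. Chance alone gives about 1 in 20 such groups where the means have a normal spread. In these 3 groups several means were 0, so that rate does not hold for them. Ptprc was 1.49 in the proliferating cells of mouse 1185, on the log2(normalised reads + 1) scale, and at most 0.17 in the other 5 mice. Spi1 was 1.47 in the proliferating cells of mouse 1185 and 0 in the other 5. Adgre1 was 0.17 in the proliferating cells of mouse 369 and 0 in the other 5, and it rests on 1 read in each of cells 39 and 46. For Spi1 and Adgre1 any value above 0 would stand apart, since the other 5 means are 0. The Ptprc and Spi1 values of mouse 1185 both came from cell 89 alone, where these genes had 60.4 and 57.5 normalised reads, so they are not independent.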

How the results depend on the processing

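Over the alternatives set with the design, members found in labelled dormant cells stayed at 33 to 34 and in labelled proliferating cells at 22 to 29. Members found only in low-label cells were 0 in most settings and 1, Was, when 2 cells were asked for, when the label limit was eCFP under 1000, and without cell 105, and they were 0 to 1 with a mouse left out. Without the labelled cells holding at least 20 members, an alternative chosen after seeing the data, they were 4. In that setting 25 members were found in labelled dormant cells and 27 in labelled proliferating cells.

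Genes called with limma were 0 in all 3 comparisons and in every limma and edgeR setting, and DESeq2 called 308 over all mice, 227 in mice with both states and 14 in labelled cells. Members higher at unadjusted p under 0.05 in mice with both states, 20 of 32 tested beside 1.04% of all genes, were 12 of 32 (0.898%) with a pseudocount of 10, 13 of 34 (0.822%) with no filter, 7 of 16 (0.596%) with a filter of 12 cells, 9 of 32 (0.959%) with the log2 of the mean value, 12 of 32 (1.3%) with edgeR, 22 of 32 (1.48%) with median of ratios and 24 of 32 (4.44%) with DESeq2. They were 0 of 23 (1.16%) without low-label cells. With a mouse left out they ran from 2 of 19 (0.368%) without mouse 369 to 25 of 31 (1.39%) without mouse 452. Without the mouse as a block they were 10 of 32 (0.639%), and the block changed no adjusted call. In labelled cells, 13 of 28 (1.45%), they were 4 of 15 (1.01%) with a filter of 12 cells and 8 of 28 (1.41%) with the log2 of the mean value. They were 8 of 28 (0.958%) without mice whose mean rests on 1 cell. With a pseudocount of 10 (1.77%), median of ratios (1.73%) or edgeR (1.56%) they were 15 of 28. They were 0 of 16 (1%) without labelled cells holding at least 20 members. With a mouse left out they ran from 1 of 25 (0.489%) without mouse 1184 and 1 of 19 (1.28%) without mouse 369 to 19 of 27 (2.17%) without mouse 452. The cause of these moves was not tested. Of single-member differences under alternatives, 9 of 478 over all mice, 5 of 360 in mice with both states and 14 of 349 in labelled cells had the other sign. Depth limits members at 1 or 2 reads, where 0 and present cannot be told apart.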
